A study of Ovis aries with 16 samples.

Results

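PLAUR is the cell-surface receptor for urokinase and MMP1 is interstitial collagenase, and the levels of their RNA were followed in the hippocampus of late-gestation fetal sheep. The genes were chosen by earlier results from these same 16 arrays, in which PLAUR read higher after hypoxia than after normoxia. Group differences of PLAUR and MMP1 are therefore given as descriptions, with no p value, and nothing is read from how many of their probes passed a criterion. The probes were found by name, as those whose gene name or description in the scanner files named PLAUR or MMP1, and 3 of 15008 probes did so, 1 for PLAUR and 2 for MMP1.

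The study asked how a brief fall in oxygen, with or without prior ketamine, left gene expression in the fetal brain a day later. The fetuses carried long-term catheters, and the ewe breathed either low-oxygen gas or normal gas for 30 min, followed by 23.5 h of normoxia, with hippocampus taken 24 h after the onset. Ketamine, an anaesthetic that blocks NMDA receptors, was given intravenously at 3 mg/kg before the stimulus in the treated groups. The groups were normoxia control (NC, n = 3), normoxia with ketamine (NK, n = 4), hypoxia control (HC, n = 5) and hypoxia with ketamine (HK, n = 4), each array carrying total RNA from whole hippocampus. The arrays lay on 2 slides of 8, and every group had its replicates 1 and 2 together on slide 1, with the higher numbers on slide 2. On each array, 76.7% to 82.6% of spots were well above background, and the number of arrays limited the precision.

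Pericellular proteolysis is the cutting of matrix and surface proteins close to the cell membrane. PLAUR, held to the outer membrane by a lipid anchor, binds urokinase (PLAU) and so keeps the conversion of plasminogen to plasmin at the cell surface, where plasmin degrades fibrin and activates precursors of matrix metalloproteinases, while MMP1 cleaves fibrillar collagen. In the brain PLAUR is usually scarce and is known mainly from activated microglia, leukocytes and endothelium after injury.

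The probe sequences are shown because the reading of MMP1 turns on how alike its probes were. Each probe had 60 bases, written from the 5′ end, and capitals mark the 59 bases that both MMP1 probes share.
PLAUR A_70_P017866: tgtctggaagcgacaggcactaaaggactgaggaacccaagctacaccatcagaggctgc
MMP1 A_70_P026537: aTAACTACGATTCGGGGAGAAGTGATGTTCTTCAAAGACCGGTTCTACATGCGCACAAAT
MMP1 A_70_P026536: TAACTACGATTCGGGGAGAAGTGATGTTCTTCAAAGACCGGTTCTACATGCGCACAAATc
The MMP1 probes were thus the same stretch shifted by 1 base, so they were readings of a shared target and not independent of each other. The PLAUR probe held 33 G or C bases, and the MMP1 probes held 26 and 27. In the RefSeq gene table for sheep, PLAUR lay between CADM4 and IRGC, and MMP1 lay in a run of metalloproteinase genes, after MMP12 and before MMP8 and MMP27.

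Intensity here is the scanner's processed signal, from which background had been subtracted, in arbitrary units. A spot was well above background where the scanner marked it so, and where a signal came too near background the scanner wrote a small surrogate value in its place. The lowest intensity of any spot well above background on an array ran from 7.21 to 11.5. A log2 level is log2 of the intensity minus log2 of the array's 75th percentile, which ran from 881.5 to 1199.5, so dim genes have negative levels.

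PLAUR, the receptor, was dim but well above background on 16 of 16 arrays. Its intensity in NC was 14.0, 20.6 and 16.9 for replicates 1 to 3, and in NK it was 13.7, 34.2, 14.6 and 22.8 for replicates 1 to 4. The normoxia groups overlapped, with NK replicate 2 above the rest. In HC the intensity of PLAUR was 37.6, 89.3, 25.2, 54.3 and 26.5 for replicates 1 to 5, and in HK it was 20.5, 55.7, 20.6 and 25.7 for replicates 1 to 4. Every HC array lay above every NC array, in log2 level also (15 of 15 pairs of arrays), and groups that did not overlap with HC the higher were seen for 3.09% of the 12541 probes tested. HK overlapped each of the other groups, and replicate 2 was the highest array of every group.

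The mean log2 level of PLAUR was lowest in NC, at -5.91 ± 0.34 (SD, n = 3), followed by NK at -5.65 ± 0.59 (SD, n = 4), HK at -5.17 ± 0.76 (SD, n = 4) and HC at -4.74 ± 0.68 (SD, n = 5). Each step between neighbours in that order was smaller than the larger of the SDs beside it. The HC mean exceeded the NC mean by 1.16 on the log2 scale (SE 0.43), a 2.24-fold difference. That size depended on the treatment of low signals: it was 0.30 with normexp background correction fitted without extreme spots, an alternative chosen after seeing the data, and 0.10 in the deposited log2 table. In whole hippocampus, more cells that carry a transcript and more transcript per cell cannot be told apart.

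With ketamine in hypoxia the PLAUR mean was lower than without it, by a log2 difference of -0.43 (SE 0.40), and ketamine in normoxia gave a difference of 0.26 (SE 0.45), which was 0.03 without NK replicate 2. Both were smaller than the residual SD of 0.59. With a block on replicate number separately in normoxia and hypoxia, the normoxia difference was 0.15. In log2 level, NK replicates 1 and 2 lay above the NC arrays of the same number, and NK replicate 3 lay below. The replicate 1 arrays were close, at -6.17 in NK and -6.29 in NC, and in intensity their order was the reverse. HK exceeded NK by 0.48 (SE 0.42), or by 0.13 without HK replicate 2. The ketamine difference in hypoxia minus that in normoxia was -0.69 (SE 0.60), and ran from -1.03, without HK replicate 2, to -0.44, without HC replicate 2.

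**Figure D1:**
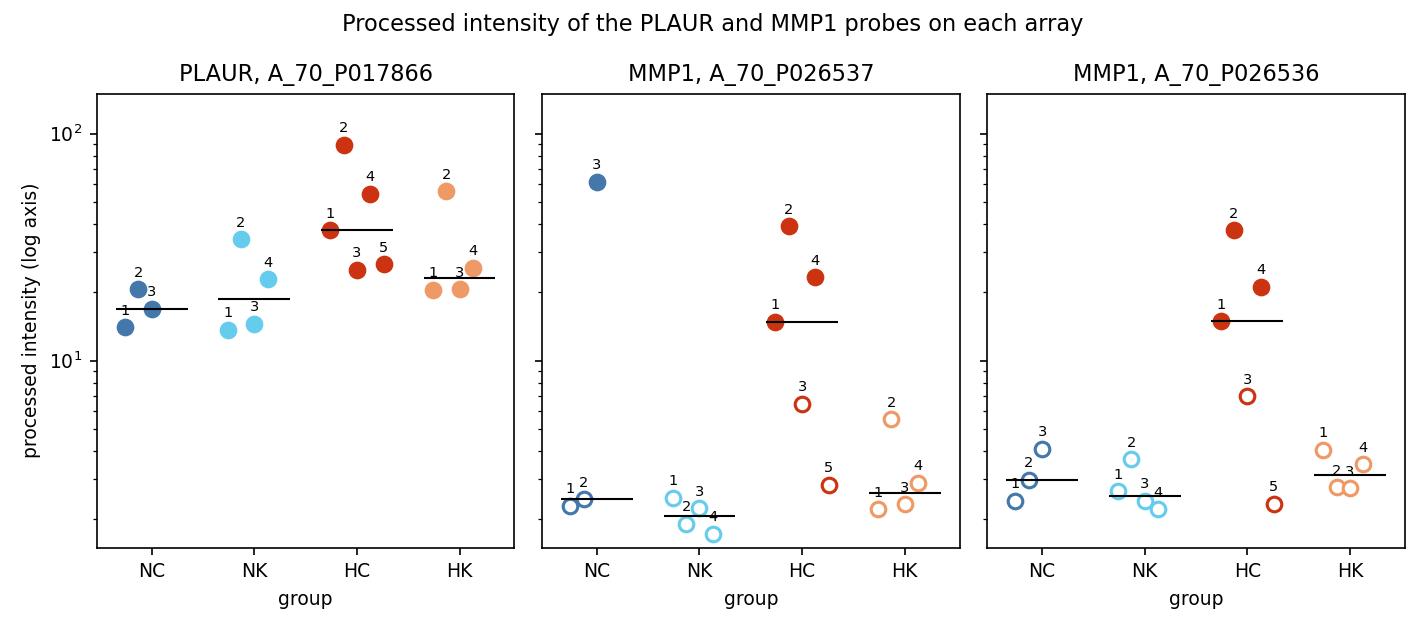
Processed intensity (arbitrary units, log axis) of the PLAUR probe and the MMP1 probes on each of the 16 arrays, by group. Filled points were well above background, open points were not, numbers are replicates and lines are group medians; PLAUR is filled throughout, whereas MMP1 is filled on 3 of 5 HC arrays for each probe and on NC replicate 3 for A_70_P026537 alone.

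MMP1, the collagenase, was not well above background on most arrays. Probe A_70_P026537 read 2.30, 2.46 and 61.4 in NC, 2.49, 1.91, 2.24 and 1.73 in NK, 14.9, 39.1, 6.47, 23.3 and 2.84 in HC, and 2.22, 5.51, 2.33 and 2.90 in HK, in replicate order. It was well above background on HC replicates 1, 2 and 4 and on NC replicate 3, and on no NK or HK array. Probe A_70_P026536 read 2.42, 3.00 and 4.10 in NC, 2.66, 3.68, 2.42 and 2.22 in NK, 14.9, 37.5, 6.98, 21.2 and 2.35 in HC, and 4.05, 2.77, 2.74 and 3.51 in HK. It was well above background on the same 3 HC arrays and on no array of another group, so it passed the filter on dim probes through HC alone and had to differ.

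The MMP1 probes read nearly alike on the HC arrays and differed most on NC replicate 3, where A_70_P026537 gave an intensity of 61.4 and A_70_P026536 gave 4.10. Before background was taken off, the mean signal of the former spot on that array was 95.7 against a local background of 33.5, and that of the latter was 35.8 against 26.0. The scanner marked neither spot as an outlier, and since the sequences share 59 bases, the NC replicate 3 reading rests on 1 spot that its partner did not match. What set that spot apart was not tested. Each probe had a surrogate value on 8 of 16 arrays, so MMP1 differences among the dim arrays describe the scanner's floor as much as the gene.

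The order of the mean log2 levels of A_70_P026536 was NK at -8.53 ± 0.24 (SD, n = 4), NC at -8.36 ± 0.52 (SD, n = 3), HK at -8.29 ± 0.26 (SD, n = 4) and HC at -6.60 ± 1.44 (SD, n = 5). Only HC stood apart from its neighbour by more than the SDs, and it overlapped the other groups through HC replicate 5. For A_70_P026537 the order was NK at -8.91 ± 0.23 (SD, n = 4), HK at -8.38 ± 0.70 (SD, n = 4), NC at -7.18 ± 2.84 (SD, n = 3) and HC at -6.53 ± 1.40 (SD, n = 5). The wide SD of NC in A_70_P026537 came from replicate 3. All 4 NK arrays of that probe held surrogate values, so its lack of overlap between NK and HC is not read as a result.

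Because whole groups had no array well above background for MMP1, its fold differences are approximate lower bounds. In such a group, lower values were raised to the lowest intensity well above background on that array, while HC values were kept as read. By A_70_P026536, HC was at least 1.08-fold higher than NC, at least 1.20-fold higher than NK and at least 1.18-fold higher than HK. By A_70_P026537, HC was at least 1.27-fold higher than NK and at least 1.24-fold higher than HK. These bounds are small because the mean of HC includes replicates 3 and 5, which were not well above background. They are not strict, since HC replicate 5 held a surrogate value for A_70_P026536.

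The fitted log2 difference of A_70_P026536 was 1.76 (SE 0.59) for HC minus NC and -1.69 (SE 0.54) for HK minus HC, and both sizes depend on surrogate values. Its differences for NK minus NC and HK minus NK were -0.17 (SE 0.62) and 0.25 (SE 0.57), between groups with no array well above background. The first of these was 0.10 without NC replicate 3, and the second ran from 0.14 to 0.36 as arrays were left out in turn. The ketamine difference in hypoxia minus that in normoxia was -1.51 (SE 0.82). A_70_P026537 gave 0.65 (SE 0.98) for HC minus NC, and 2.29 (SE 0.71) once NC replicate 3 was left out, a size set by surrogate values on both NC arrays that remained. Its NK minus NC difference likewise went from -1.73 (SE 1.03) to -0.09, and its ketamine difference in hypoxia minus that in normoxia from -0.12 (SE 1.37) to -1.76, without that array. HK minus HC was -1.85 (SE 0.90) by A_70_P026537. NC does not enter that difference, but the SE rests on a spread shared by all groups, NC replicate 3 included.

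**Figure D2:**
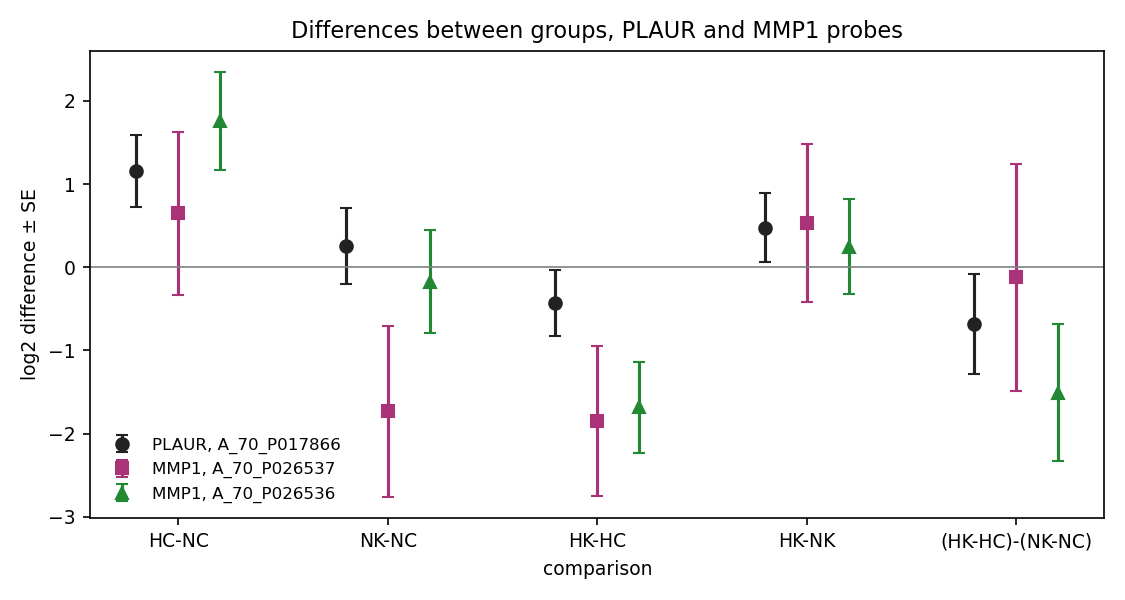
Log2 differences between groups (points, with bars of 1 SE) for the PLAUR probe and the MMP1 probes in the 5 comparisons. PLAUR and MMP1 A_70_P026536 lie above 0 for HC minus NC, at 1.16 and 1.76, while the bars of A_70_P026537 are wider because of NC replicate 3.

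A probe passed the criterion in a comparison where limma gave an unadjusted p under 0.05, and the share of all 12541 probes that did so is given beside each count of the 3 PLAUR and MMP1 probes. For HC minus NC, 2 of the 3 probes were higher (PLAUR and A_70_P026536) against 4.67% of all probes, and 0 were lower against 5.92%; that contrast chose the genes, so the count is a description. For HK minus HC, 0 were higher against 2.89% and 1 was lower (A_70_P026536) against 1.88%, a direction that its passage of the filter through HC alone had fixed. For NK minus NC, 0 were higher against 0.726% and 0 lower against 1.07%, and for HK minus NK 0 were higher against 2.87% and 0 lower against 2.31%. The ketamine difference in hypoxia minus that in normoxia passed for 0 of the 3 probes, against 2.39% of all probes above 0 and 1.01% below. After Benjamini-Hochberg adjustment in limma, 1 of all probes was higher and 1 lower for HC minus NC and 0 passed in the other comparisons. The comparisons share groups, so HC enters both the hypoxia and the ketamine difference.

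Within slides, the PLAUR difference of HC minus NC was 1.60 on the slide of replicates 1 and 2 and 0.78 on the other, and HK minus HC was -0.60 and -0.38. Slide 2 held 1 NC array, replicate 3, so its differences from NC rest on that array. For MMP1 A_70_P026536, HC minus NC was 2.96 and 0.59 and HK minus HC was -2.64 and -1.04. For A_70_P026537, HC minus NC was 3.17 on slide 1 and -3.21 on slide 2, and HK minus HC was -2.61 and -1.39. With slide as a block, HC minus NC was 1.24 (SE 0.44) for PLAUR, 1.87 (SE 0.60) for A_70_P026536 and 0.57 (SE 1.03) for A_70_P026537.

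Leaving out each array in turn moved the HC minus NC difference of PLAUR between 0.92, without HC replicate 2, and 1.33, without HC replicate 3. The HK minus HC difference of PLAUR moved between -0.78, without HK replicate 2, and -0.19, without HC replicate 2. Since no HC array overlapped NC, leaving out an array could not turn the sign of the first of these. A_70_P026537 kept its sign for HC minus NC in 14 of 17 alternatives, which included the mean of both MMP1 probes (1.20). The lowest value among single arrays left out was -0.21, without NC replicate 1.

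Across the 16 arrays, the log2 level of PLAUR and that of MMP1 A_70_P026536 had a Pearson r of 0.69 and a Spearman rho of 0.55, given as a description. With the group means taken off, r was 0.55, within the slides it was 0.67 and 0.73, and without HC replicate 2 and HK replicate 2, the arrays farthest from the PLAUR median, it was 0.71. For PLAUR and A_70_P026537, r was 0.49 and rho 0.41, with r of 0.48 once group means were taken off, 0.77 and 0.22 within the slides, 0.35 without those arrays and 0.77 without NC replicate 3. The relation of PLAUR to A_70_P026537 therefore rested in part on which arrays were included. The MMP1 probes had an r of 0.75 and a rho of 0.67 with each other, and r was 0.94 without NC replicate 3.

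The 3 HC arrays brightest for MMP1, which were replicates 2, 4 and 1 in that order, were also the 3 brightest HC arrays for PLAUR in the same order. HK replicate 2 had the second-highest PLAUR intensity of all arrays, at 55.7, yet its MMP1 intensities of 5.51 and 2.77 were not well above background. High PLAUR thus occurred both with MMP1 and without detectable MMP1.

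**Figure D3:**
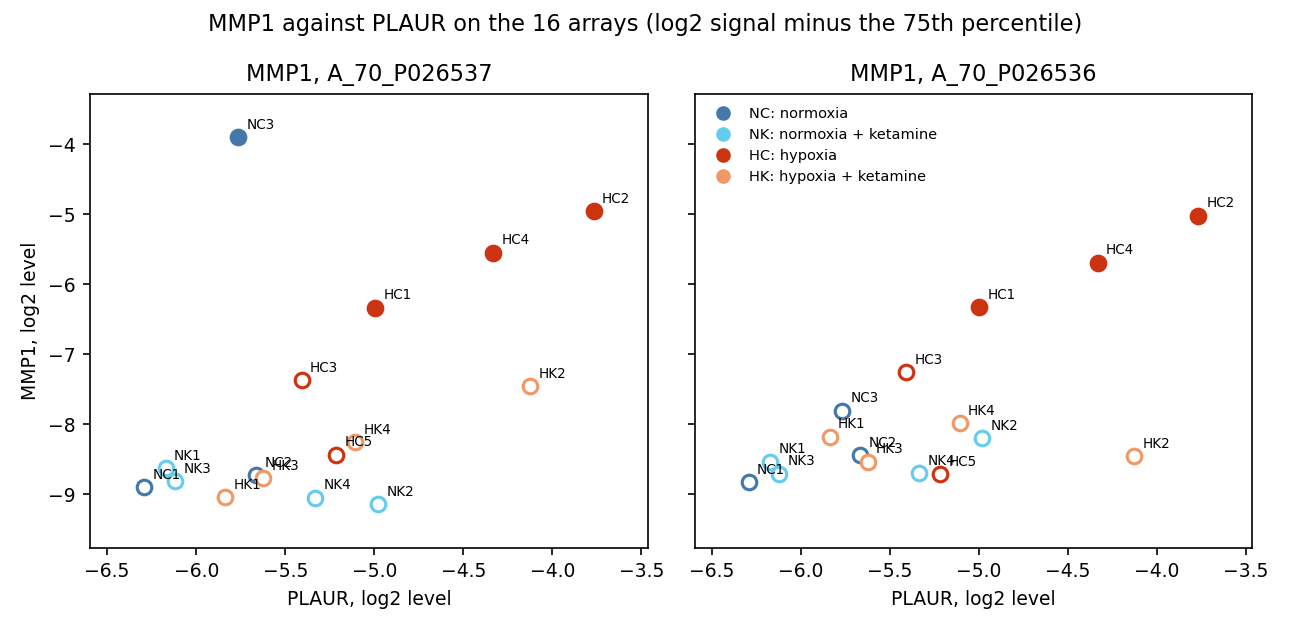
Log2 level of each MMP1 probe (vertical axis) against that of PLAUR (horizontal axis) on the 16 arrays, marked by group. HC arrays reach the upper right, HK replicate 2 lies to the right with MMP1 low, and NC replicate 3 is high for A_70_P026537 (r 0.49) but not for A_70_P026536 (r 0.69).

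Of 775 other gene names with a tested probe, those whose log2 levels followed PLAUR most closely over the 16 arrays were TLR4 (r 0.87), ICAM1 (0.86), IRF1 (0.86), IL18 (0.85) and FCER1A (0.85). With group means taken off, their r values were 0.81, 0.76, 0.78, 0.77 and 0.75, and their rho values were 0.79, 0.85, 0.69, 0.84 and 0.79. FCER1A was well above background on 5 of 16 arrays and the other 4 on 16. Lowest were H3F3A (r -0.78), EAAT1 (-0.80) and CPT1A (-0.85), and CPT1A kept an r of -0.80 without HC replicate 2 and HK replicate 2.

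For MMP1 by its brighter probe, A_70_P026537, the closest were IRF2, JUNB, TLR2 and TLR4 (each r 0.64) and FOS (0.63), and the lowest were RABL2A (-0.57), SPRY-4 (-0.59) and OCLN (-0.64). Those values carried the doubtful NC replicate 3 reading, through which alone that probe had the higher mean, and without it and HC replicate 2 the r of TLR2 was 0.88 and that of RABL2A was -0.20. By A_70_P026536, a choice of probe made after seeing the data, which was well above background on 3 of 16 arrays and held surrogate values on 8, the closest were CEBPB (r 0.94, rho 0.85, and 0.91 with group means taken off), PDXK (0.83), CD14 (0.83), MCL1 (0.83) and IRF2 (0.82). The lowest were LAT1 (-0.69), SPRY-4 (-0.72) and PLAU (-0.79). Without HC replicates 2 and 4, the arrays farthest from the median of that probe, r was 0.87 for CEBPB, 0.64 for PDXK, 0.70 for CD14, 0.50 for MCL1 and 0.54 for IRF2, and -0.32, -0.55 and -0.40 for LAT1, SPRY-4 and PLAU, so these relations rested in part on those arrays. With them out, HC replicate 1 was the only array well above background for that probe, so the values read mostly the scanner's floor. The gene names closest to PLAUR and to MMP1 A_70_P026537 had TLR4 in common.

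The other genes of the pathway were taken from 7 lists covering plasminogen activators, metalloproteinases, inhibitors, other matrix proteases, substrates, integrins and regulators, in which 59 of 173 genes other than PLAUR and MMP1 were on the array and 54 were tested by their brightest probe. For HC minus NC, 10 of 54 were higher (18.5%) and 2 were lower (3.7%), beside 8.89% and 5.15% of the 776 gene names tested. The higher count was 6 without NC replicate 1, and the lower count was 0 without NC replicate 3 and 1 without NC replicate 2 or HC replicate 1, 2 or 4. The median log2 difference was 0.11 over the 54 and 0.03 over the 776. None of the 54 passed limma's Benjamini-Hochberg adjustment over all probes in any comparison, and PLAT had no probe that named it.

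PLAU, urokinase, the ligand of PLAUR, was well above background on 16 of 16 arrays. Its intensity was 236.4, 233.4 and 257.8 in NC, 240.9, 267.3, 262 and 248.5 in NK, 241.6, 171.2, 203.3, 130.8 and 248.8 in HC, and 200.6, 207.5, 243.2 and 216.8 in HK. HC replicates 2 and 4, the arrays with the most PLAUR in that group, had the least PLAU, while HC replicates 1 and 5 lay among the NC intensities, and in log2 level replicate 5 alone did. The HC minus NC difference of PLAU was -0.45 on the log2 scale (SE 0.20), with an unadjusted p of 0.0464 and an adjusted p of 0.459 in limma. That call was kept in 9 of 17 alternatives and lost on leaving out NC replicate 2, NC replicate 3, HC replicate 2 or HC replicate 4, and also with normexp, with median scaling, in the deposited table and with only the compared groups fitted, with differences between -0.58 and -0.15 over the alternatives.

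Among the other plasminogen genes, ANXA2, which binds plasminogen at the cell surface, was higher in HC than in NC by 0.57 (SE 0.22, limma adjusted p 0.372), and lost the call without NC replicate 1 or HC replicate 5. Of the 4 other metalloproteinases tested, MMP14, a membrane-bound enzyme, differed by -0.55 (SE 0.22, limma adjusted p 0.383) and lost the call without NC replicate 2, NC replicate 3, HC replicate 1 or HC replicate 4, with differences between -0.71 and -0.05 over the alternatives. MMP2, a gelatinase, differed by -0.26 (SE 0.42), and MMP9 was on the array but failed the filter. The MMP2 difference was -0.42 without NC replicate 2 and -0.17 without HC replicate 3, and -0.07 at its nearest to 0 over the alternatives. Of 5 inhibitors 0 passed in either direction by limma, TIMP1 differing by 0.29 (SE 0.18), TIMP2 by -0.18 (SE 0.21) and TIMP3 by 0.39 (SE 0.25). Leaving out HC replicate 2 took the TIMP1 difference to 0.17 and leaving out HC replicate 5 took that of TIMP2 to -0.03. Over all alternatives the TIMP2 difference ran as high as 0.07, a turn of sign. TIMP3 passed in 4 of 17 alternatives, namely normexp, the deposited table, the replicate block and without HC replicate 5 (0.52). Among these named genes around PLAUR and MMP1, ANXA2, PLAU and MMP14 passed the criterion, and MMP2 and the inhibitors did not. The 3 cathepsins and related proteases tested held 0 genes past the criterion.

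Among 7 matrix substrates, IGFBP3, a growth factor carrier that metalloproteinases cut, was higher in HC than in NC by 2.08 (SE 0.56, limma adjusted p 0.193), a call kept in 17 of 17 alternatives, over which the difference ran as low as 0.52. Among 10 integrins and partners of PLAUR, ITGB1, an integrin subunit, was higher by 0.31 (SE 0.12, limma adjusted p 0.367) and lost the call without NC replicate 1 or NC replicate 3, with normexp and in the deposited table. The list with the most genes past the criterion was that of 22 regulators of PLAUR and MMP1 transcription, in which 7 were higher (31.8%) and 0 lower, beside the 8.89% and 5.15% of all gene names.

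Of the cytokines on that list, IL6 and IL1A did not pass, at -0.43 and 0.14, and single arrays weighed on both. IL6 had a log2 level of -2.54 on HC replicate 4 against -5.65 to -3.98 on the other HC arrays. IL1A had one of -4.86 on NC replicate 1 against -6.13 and -5.86 on the other NC arrays. IL1B and TNF, inflammatory cytokines, were higher in HC than in NC by 1.18 (SE 0.34, limma adjusted p 0.208) and 2.25 (SE 0.70, limma adjusted p 0.237), and NFKBIA, the inhibitor of NF-kappa-B, by 1.31 (SE 0.35, limma adjusted p 0.193). These 3 calls were kept in every alternative run, 17 for IL1B and NFKBIA and 16 for TNF, but over those alternatives the differences ran as low as 0.47 for IL1B, 1.17 for NFKBIA and 0.19 for TNF. IL1RN, the interleukin-1 receptor antagonist, was below background on all 3 NC arrays and at least 3.96-fold higher in HC, and it lost the call with normexp; over the alternatives its log2 difference ran as low as 0.15. The transcription factor CEBPB was higher by 1.26 (SE 0.47, limma adjusted p 0.347), losing the call without NC replicate 1 and with only the compared groups fitted, and ran as low as 0.33 over the alternatives. The remaining pair, TNFRSF1A and FGF2, differed by 0.48 and 0.64, TNFRSF1A losing the call without NC replicate 1, with normexp and in the deposited table, where it ran as low as 0.08, and FGF2 on leaving out any of NC replicates 1 and 2 and HC replicates 1, 3 and 4.

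For HK minus HC, 0 of the 54 pathway genes were higher and 5 were lower (9.26%), beside 3.09% and 2.58% of the 776 gene names, and the median was -0.10 against 0.03. All 5 were regulators of PLAUR and MMP1 transcription, namely IL1B (-0.83), IL1RN (-1.21), TNF (-1.52), CEBPB (-1.09) and HIF1A (-0.44), each with a limma adjusted p of 0.972. IL1RN and TNF were each well above background on 5 of 5 HC arrays but on 2 of 4 HK arrays, so their sizes depend on low signals. The lower count was 2 without HC replicate 2, HC replicate 4 or HK replicate 3, 8 without HK replicate 2 and 9 without HC replicate 5. The higher count was 1 without HC replicate 3 or HC replicate 5. With replicate number as a block, 1 was higher (PLAU) and 8 were lower, as NFKBIA (-0.78), JUNB (-0.56) and IGFBP3 (-1.17) also passed. Blocked separately in normoxia and hypoxia, 0 were higher and 11 lower. Gene by gene, the call was kept in 18 of 19 alternatives for HIF1A, 16 of 19 for IL1B, 14 of 19 for CEBPB and 10 of 18 for IL1RN and TNF. The sizes nearest 0 over those alternatives were -0.17 for HIF1A, -0.34 for IL1B, -0.29 for CEBPB, -0.13 for IL1RN and -0.12 for TNF, and with normexp 2 of the 54 were higher and 3 lower. In the fit without a block, ligand, proteases and inhibitors held 0 genes past the criterion in that comparison, with PLAU at 0.30 (SE 0.19), TIMP1 at -0.23 (SE 0.16) and MMP2 at -0.11 (SE 0.39). Leaving out HC replicate 2 took the TIMP1 difference to -0.12. That of MMP2 was -0.015 without HC replicate 1 and turned sign, to 0.07, at its highest over the alternatives.

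For NK minus NC, 1 of the 54 was higher and 1 lower, beside 1.16% and 0.773% of the 776, and a fit that blocked on replicate number separately in normoxia and hypoxia gave 4 in place of those 2. The higher gene was EPAS1, a hypoxia-inducible transcription factor, at 0.93 (SE 0.26), which was well above background on 1 of 3 NC arrays. EPAS1 lost the call with normexp and in the deposited table and ran as low as 0.04 over the alternatives. The lower gene was the integrin ITGAL, which was not well above background on any NC, NK or HK array, so that no difference is read from it. For HK minus NK, 3 were higher (5.56%) beside 5.67% of the 776 and 0 lower beside 1.68%, namely IGFBP3 at 1.20, IL1RN at 1.32, with 1 NK and 2 HK arrays well above background, and ITGAL, with 0 in both groups. Leaving out arrays, the higher count ran from 1, without NK replicate 1 or HK replicate 2, to 5, without HK replicate 3. The lower count was 2 without NK replicate 1 and 1 without NK replicate 3 or NK replicate 4. The call was kept in 10 of 17 alternatives for IGFBP3 and 10 of 16 for IL1RN, whose differences ran as low as 0.21 and 0.03. The ketamine difference in hypoxia minus that in normoxia passed for 1 of the 54, TNFRSF1A at -0.61 (SE 0.25), beside 2.45% of the 776 above 0 and 1.42% below, a call kept in 17 of 25 alternatives. That count ran from 0, without NC replicate 1, HC replicate 2 or HK replicate 3, to 3, without NK replicate 1, HC replicate 3 or HK replicate 2, and was 2 on leaving out NC replicates 2 and 3, NK replicate 3, HC replicates 4 and 5 and HK replicates 1 and 4, each in turn. With replicate number as a block the count was 5, as CEBPB (-1.54), NFKBIA (-0.93), TNF (-1.96) and IL1RN (-1.31) also passed, and blocked separately in normoxia and hypoxia it was 7.

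**Figure D4:**
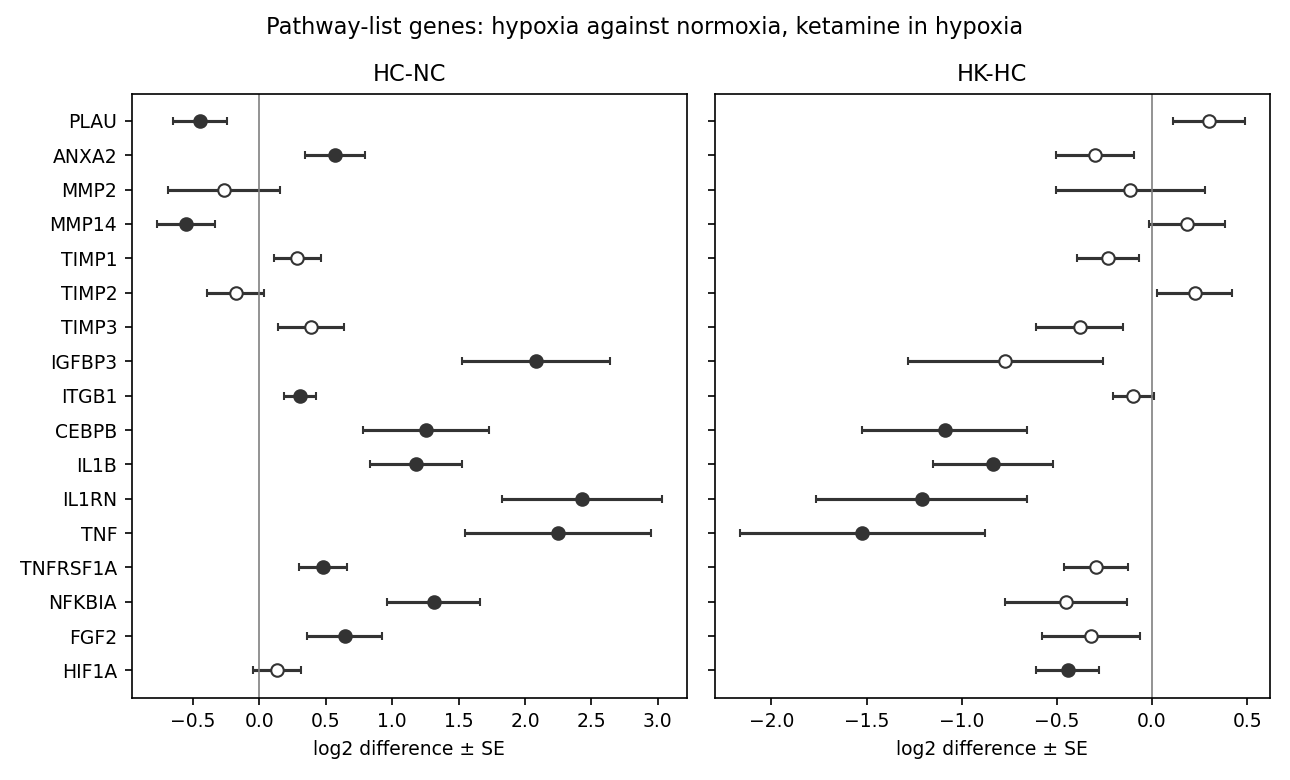
Log2 differences (with bars of 1 SE) of 17 pathway genes other than PLAUR and MMP1, for HC minus NC and HK minus HC, filled where the unadjusted p was under 0.05. Apart from IL1RN, IGFBP3 and TNF lie farthest above 0 for HC minus NC, and PLAU and MMP14 lie below 0. The HC minus NC point of IL1RN is not read as a size, because none of its NC arrays was well above background. Only the bound of at least 3.96-fold holds.

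Markers of cell types were read on the same arrays to set beside PLAUR and MMP1. The hippocampal neuron list had 5 of its 16 genes on the array, all 5 well above background on every array and SST the brightest, and the oligodendrocyte list had 0 of 8. Of those neuron genes 3 were lower for HC minus NC, GRIN1 at -1.01, GRIA1 at -0.65 and GRIA2 at -0.41, which were -0.73, -0.45 and -0.28 without HC replicate 5 and then did not pass, and the median over the 5 was -0.65. Of all 776 gene names, 8.89% were higher and 5.15% lower for HC minus NC, 3.09% and 2.58% for HK minus HC, and 5.67% and 1.68% for HK minus NK, as the background for every marker list. The summed scaled level of the neuron genes (intensity over the array's 75th percentile) was 35.07 to 41.11 in NC and 28.21 to 46.99 in HC replicates 1 to 4, but 9.69 in HC replicate 5, whose MMP1 was not well above background. The r of the neuron sum with MMP1 A_70_P026536 was 0.12, and 0.21 without the 2 arrays farthest from the median. With group means taken off it was 0.75, the highest of the marker lists for that probe. HC replicate 5 was the lowest HC array both in the neuron sum and in that probe, where it held a surrogate value. The r without that array was not computed. Of 19 microglia and macrophage genes 6 were on the array, with FCER1G the brightest. Their summed scaled level was 0.509 to 0.632 in NC, 0.549 to 0.653 in NK, 0.846 to 2.31 in HC and 0.596 to 1.68 in HK. That sum was highest on HC replicate 2 and then HK replicate 2, the arrays highest in PLAUR. Its r with PLAUR was 0.82 (rho 0.80), 0.69 with group means taken off and 0.62 without HC replicate 2 and HK replicate 2, and its r with MMP1 A_70_P026536 was 0.67, 0.40 with group means taken off and 0.37 without the arrays farthest from the median. CD14, FCER1G and FCGR1A of that list passed the criterion for HC minus NC, at 1.98, 0.72 and 1.13, and CD14 (-1.10) and FCGR1A were lower for HK minus HC, while LYZ was higher for HK minus NK by 3.34 and FCGR1A passed at -1.31 for the ketamine difference in hypoxia minus that in normoxia. The HC minus NC calls were kept in 17 of 17 alternatives for CD14, 16 for FCER1G and 13 for FCGR1A, the HK minus HC calls in 16 of 19 for CD14 and 13 for FCGR1A, the LYZ call in 14 of 16 and the last in 12 of 25. Over those alternatives the HC minus NC differences ran as low as 0.80 for CD14, 0.54 for FCER1G and 0.22 for FCGR1A, and that of LYZ as low as 0.59. For HK minus HC the sizes nearest 0 were -0.52 for CD14 and -0.20 for FCGR1A, and for the last call -0.25. The part of these cells in the PLAUR and MMP1 levels was not tested.

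The endothelial sum (5 of 13 genes on the array, PECAM1 brightest) was 1.04 to 1.19 in NC and 1.24 to 3.33 in HC. Its r was 0.61 with PLAUR and 0.72 with MMP1 A_70_P026536, or 0.32 and 0.48 with group means taken off. Without the 2 arrays farthest from the median these were 0.65 and 0.67. SELP was higher by 4.16 for HC minus NC and 2.53 for HK minus NK. The calls of SELP were kept in 16 of 16 and 12 of 16 alternatives, over which the differences ran as low as 1.58 and 0.51. SELP was the 1 gene of 4 tested on that list to pass, and the list's median difference for HC minus NC was 0.10, so the sum did not stand for the list as a whole. The neutrophil sum (3 of 15 genes, CATHL3 brightest) ran from 0.137 to 0.284 in NC and 0.0578 to 0.272 in NK. It ran from 0.278 to 5.74 in HC and 0.293 to 7.16 in HK, and its r with PLAUR was 0.55, or 0.36 with group means taken off. LTF and CATHL3 of that list were higher for HK minus NK, by 1.99 and 4.42, in 17 of 17 alternatives each. Over those alternatives the differences ran as low as 0.40 and 2.45. The choroid plexus sum, dominated by TTR, was 83.96, 70.66, 41.42 and 50.47 on replicate 2 of NC, NK, HC and HK, which was also the array highest in PLAUR of each group, and 77.46 and 35.33 on HC replicate 5 and HK replicate 4, with 8.73 or less elsewhere. Its r with PLAUR was 0.50, 0.56 with group means taken off and 0.34 without HC replicate 2 and HK replicate 2. Sums of the astrocyte, meningeal and red cell lists had r values with PLAUR of 0.23, 0.01 and 0.17, and that of the neuron list -0.08; without HC replicate 2 and HK replicate 2 these were -0.02, 0.55, 0.28 and -0.14. GJA1 of the astrocyte list and AHSP of the red cell list were higher for HC minus NC, by 0.47 and 2.52. The call was kept in 8 of 17 alternatives for GJA1, whose difference was 0.29 without HC replicate 3. It was kept in 17 of 17 for AHSP, whose difference ran as low as 0.53. The part of these tissues in the PLAUR levels was not tested.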

How the data were processed

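The scanner files hold the processed signal as intensity per the file headers, made by Agilent Feature Extraction 10.1.1.1 with background subtracted and no scaling between arrays. The deposited series table holds log2 values that the authors made with limma in R 2.15.1, and it served as an alternative. Intensities were taken as log2 and the array's 75th percentile over non-control probes was subtracted. A probe was tested if at least 3 of the 16 arrays held it well above background, which 12541 of 15008 did. Groups were compared with limma 3.58.1 in R 4.3.3, by moderated tests with Benjamini-Hochberg adjustment over all probes tested, 5 comparisons in all, and the fit was checked on simulated data. Names came from RefSeq accessions (727 probes), gene names in the files (498) or the file alone (241), and for MMP1 from the description. A pathway or marker gene was read from its brightest probe, and named if it had an unadjusted p under 0.05, or was among core genes named whatever their values, which included PLAU, PLAT, MMP2, MMP9 and TIMP1 to TIMP3. The 5 highest and 3 lowest correlations were named. For marker lists, genes past the criterion were named, and for some lists the gene with the brightest probe, which does not rank transcripts between genes. The genes and the lists were chosen with earlier results of these data known.

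NC and NK arrays with the same replicate number, which also share a slide, deviated from their group means together (r 0.37, 0.31 and 0.21 for the 3 pairs). The numbers were therefore taken to pair those groups, although the labels do not say why. The main fit did not use this pairing, which entered only through the blocks on replicate number among the alternatives. Alternatives were another background correction, other scalings, the deposited table, other filters, a block for slide or for replicate number, fits of the compared groups alone, and each array left out in turn. For MMP1 A_70_P026537 they included the mean of both MMP1 probes.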

Additional observations from a re-analysis of the deposited data

Results flagged for a closer look

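The PLAUR and MMP1 levels held no array set apart within its group by the test of gaps used here (in groups of 4 or 5, the gap between an extreme array and its nearest neighbour over the group's range, held against Dixon's critical value). That test was made in 66 groups, chance flags about 1 in 20, and groups of 3, such as NC, were not tested. It set apart 3 values of other genes, on 2 arrays. HC replicate 5 was lowest for NFKBIA, at a log2 level of 0.57 against 1.99 to 2.46 in the other HC arrays (gap over range 0.75). The same array was lowest for HIF1A, at -3.12 against -2.56 to -2.39 (gap over range 0.7635). NK replicate 2 was highest for MMP2, at -1.55 against -3.99 to -3.85 in the other NK arrays (gap over range 0.9433).

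TNFRSF1A was the 1 pathway gene whose ketamine difference in hypoxia minus that in normoxia passed the unadjusted criterion, at -0.607 (limma adjusted p 1). The causes of these values were not tested.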

How the results depend on the processing

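No PLAUR or MMP1 difference past the criterion in the main fit changed sign, which tests little. PLAUR was chosen for its HC minus NC difference, in which no arrays overlapped, and A_70_P026536 passed the filter through HC alone. Normexp as planned was not run as written, because fitted on all spots it left 6 arrays with a first percentile of 147.7 to 1600 against 55.65 to 60.97 on the others. An alternative added after seeing the data fitted it without the 1 to 10 spots on each of those 6 arrays whose local background far exceeded their signal. With it, HC minus NC was 0.297 for PLAUR and 0.145 for A_70_P026536, HK minus HC was -0.0742 for A_70_P026537 and -0.0694 for A_70_P026536, NK minus NC was -0.297 for A_70_P026537, and the ketamine difference in hypoxia minus that in normoxia (the difference of differences) was -0.0489 for A_70_P026536. HC minus NC of A_70_P026537, not past the criterion in the main fit, was -0.0881. In the deposited table, the same values in that order were 0.104, 0.0554, -0.0582, -0.0525, -0.0662 and -0.0468, and the difference of differences of PLAUR was -0.0701. Both sources raise low signals, which shrinks differences of dim probes. Leaving out each array in turn, A_70_P026537 ran from -0.21 to 2.29 for HC minus NC, -2.59 to -0.0944 for NK minus NC and -1.76 to 0.74 for the difference of differences, the outer values coming without NC replicate 1 or 3.

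Pathway genes past the criterion in either direction numbered 12 for HC minus NC, 2 for NK minus NC, 5 for HK minus HC, 3 for HK minus NK and 1 for the difference of differences, and 0 in each by limma's adjusted p. For NK minus NC the count was 1 with normexp, the deposited table or no filter, and 0 with probes well above background on all 16 arrays. For HK minus HC it was 3 with that filter, 1 with only the groups compared, and 2 to 10 leaving out each array. For HK minus NK it was 1 with normexp or that filter, 0 in the deposited table, 5 with only the groups compared, and 1 to 5 leaving out each array. For the difference of differences it was 0 with normexp or the deposited table, and 0 to 3 leaving out each array. The causes were not tested.

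HC and HK arrays of the same number, which also share a slide, were not taken as pairs, because their r values (0.40, 0.31, 0.07 and 0.12) were not all over 0.1. With the replicate block, the counts were 9 for HK minus HC, 6 for HK minus NK and 5 for the difference of differences; blocked within each oxygen group, a choice made after seeing the data, they were 4 for NK minus NC, 11 for HK minus HC and 7 for the difference of differences. With the replicate block PLAU passed for HK minus HC, at 0.43, and blocked within each oxygen group TIMP3 did, at -0.51. The block changed no other count by over 1.5 times. HC minus NC of PLAUR was 1.21 with the replicate block. Among all probes, 44.1% of calls for HC minus NC were higher, and 29.2% with normexp; for HK minus HC these were 60.5% and 87.9%.

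The filter on all 16 arrays dropped both MMP1 probes, the difference of differences needs all groups, and the block within oxygen groups cannot give HC minus NC or HK minus NK. Signal over background limited MMP1 to HC and 1 NC array, PLAUR rested on 1 probe, and few arrays per group limited every difference.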
